A study of Mus musculus with 23 samples.

Results

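Small-intestinal scrapings of 23 mice differed in how much RNA of pancreatic enzymes they held, and the 8 mice with the most were set against the 8 with the least. Each mouse was ranked by a pancreatic score, the mean log2 ratio of Cy5 (the mouse) over Cy3 (a pool of all mice) over the 6 array spots named Cpa1, Cpb1, Pnlip, Ctrb1 or Clps, after the median of the array was taken off. The 8 highest and the 8 lowest made up 16 of the 23 mice, and 7 mice lay in between. The groups were chosen by the measured ratios of these 5 genes, so they are described below with no test, and other acinar genes move with them by the choice of mice. All 23 were adult male C57BL/6J mice on a high-fat diet for 12 weeks after 3 weeks on a normal-fat diet, 12 without quercetin (HF) and 11 with 0.33% quercetin by weight (HF-Q), with food withheld for 2 to 4 hours before they were killed. Each mouse had 1 array, with 200 ng of RNA as starting material, no dye was swapped, and the authors left out 1 HF-Q mouse with an abscess. The labels do not say which stretch of the small intestine was scraped, nor whether mice shared a litter or cage, so p-values measure the spread between these mice. One protocol label names liver as the source of the RNA. The hepatocyte genes Ahsg and Mup3 were well above background on 0 of 23 arrays and Fgb and Hpx on 2, while the enterocyte genes Alpi, Vil1, Sis and Anpep were so on 23 of 23.

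Acinar cells of the exocrine pancreas make the digestive enzymes that act in the gut lumen, most of them as inactive zymogens that are cut open after secretion: trypsinogens, chymotrypsinogens, elastases and carboxypeptidases for protein, lipases for fat and amylase for starch. Their enzyme messages are among the most abundant of any cell type and are driven together by a small set of factors, among them the PTF1 complex, which binds a paired E-box and TC-box. In the mouse the pancreas is a soft, spread-out gland that lies along the duodenum and its mesentery, with islets scattered through the acinar tissue.

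The score rests on 60-base array probes, of which 2 are shown because their genes part ways below, with the probe of Tff2, which after Amy1 had the largest difference of the called genes with an official symbol outside the acinar lists. They are written 5′ to 3′ in lower case, as the scanner files give them, with positions on build mm9. The positions of the Tff2 probe span 825 bases for its 60 letters.
Cpa1 probe, chr6:30595240-30595299, plus strand: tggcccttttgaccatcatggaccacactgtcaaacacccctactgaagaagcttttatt
Clps probe, chr17:28695761-28695820, minus strand: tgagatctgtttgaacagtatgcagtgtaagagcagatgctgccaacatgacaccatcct
Tff2 probe, chr17:31279256-31280080, minus strand: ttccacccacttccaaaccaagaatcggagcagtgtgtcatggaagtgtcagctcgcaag

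The pancreatic score ran from 2.64 in HF mouse 11 to -2.44 in HF-Q mouse 2. The other high mice were HF-Q mouse 1 at 2.55, HF mouse 2 at 2.36, HF mouse 4 at 2.01, HF mouse 1 at 1.55, HF mouse 3 at 0.92, HF mouse 5 at 0.65 and HF-Q mouse 4 at 0.57. The next mouse below them, HF-Q mouse 6, scored 0.35, a small step from the last high mouse. At the low end the 8 mice ranged from -1.61 in HF-Q mouse 7 to -2.44, and the next mouse above them, HF mouse 10, scored -0.94. The high mice were thus spread over more than the low mice, 7 of which lay between -1.61 and -1.90. Part of the low scores came from spots near background, as Cpb1 was well above it on 4 of the 8 low arrays. Whether this narrowed their spread was not tested.

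**Figure D1:**
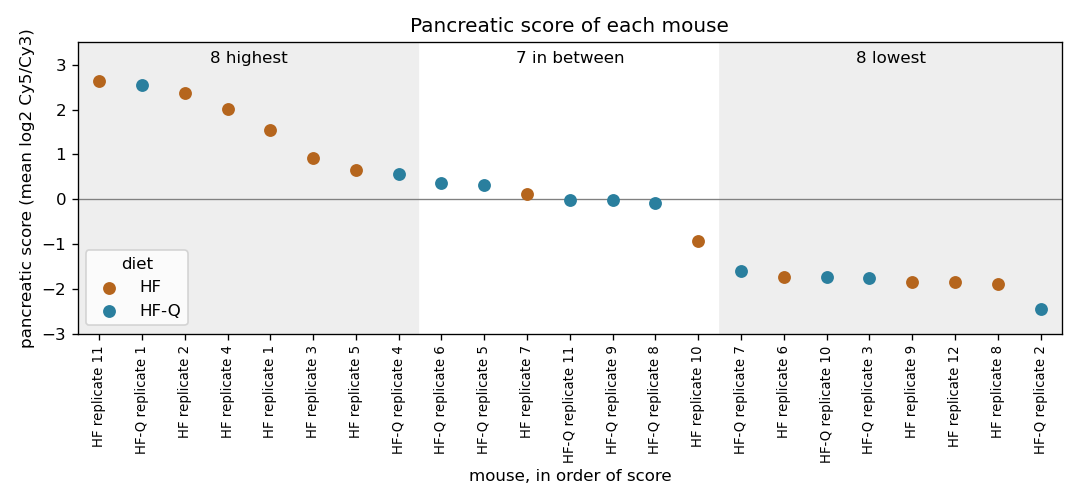
Pancreatic score of each of the 23 mice (mean log2 Cy5/Cy3 over 6 spots, array median at 0) in order of score; colours give the diet and the shaded bands the 8 highest and 8 lowest mice. The high mice run from 0.57 to 2.64 and the low mice from -2.44 to -1.61.

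Mice of both diets were found at both ends. The high group held 6 HF and 2 HF-Q mice and the low group 4 and 4 (two-sided Fisher's exact test, p = 0.608). The score itself was 0.17 ± 1.76 (SD, n = 12) in HF and -0.35 ± 1.43 (SD, n = 11) in HF-Q, a difference of -0.52 (two-sided permutation test, 100000 resamples, p = 0.445). Within the 3 slides the difference between diets was -0.26, 0.04 and -1.14. The slides held 2, 3 and 3 of the high mice and 4, 2 and 2 of the low mice, and the score did not separate by slide beyond its spread (permutation test, p = 0.433). The median signals of the arrays, the share of probes well above background (50.7% to 57.5% in the high and 50.6% to 57.8% in the low group) and the number of outlier spots had overlapping ranges in both groups.

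Of the score genes, 4 followed one another and the fifth did not. Cpb1, which codes for procarboxypeptidase B, had log2 ratios of 0.40 to 3.35 with a median of 2.27 in the high mice and -4.89 to -3.70 with a median of -4.54 in the low mice. On the low arrays it was well above background on 4 of 8, where its median spot signal was 91.0 against 10647 in the high mice. Pnlip, pancreatic triglyceride lipase, lay between 0.30 and 3.28 in the high mice and between -4.15 and -3.55 in the low mice.

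Cpa1, procarboxypeptidase A, had ratios of 0.29 to 2.99 in the high mice and -2.83 to -2.19 in the low mice, and its median Cy5 spot signal was 13168 in the high and 526 in the low mice. Ctrb1, chymotrypsinogen B, ranged from 0.45 to 3.11 and from -2.38 to -1.85. For these 4 genes the groups did not overlap, which the ranking itself brings about.

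Clps, colipase, the cofactor that holds the lipase to fat droplets, had ratios of 0.88 to 2.02 in the high mice and -0.57 to 1.38 in the low mice on the probe shown above. The second Clps probe gave 0.83 to 2.07 and -0.46 to 1.48. On both probes the groups overlapped, and 22 of 23 mice lay above the array median. The Clps spots were bright in both groups, with a median Cy5 signal of 9404 in the high and 8382 in the low mice on the probe shown, and 42590 and 44337 on the other. After normalization the Clps difference between the groups was 0.10 ± 0.25 (SE, 8 high and 7 low arrays) on the second, brighter probe. On the probe shown it was 0.24 ± 0.25 (SE). The same 8 high and the same 8 low mice were found when Clps was left out of the score.

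**Figure D2:**
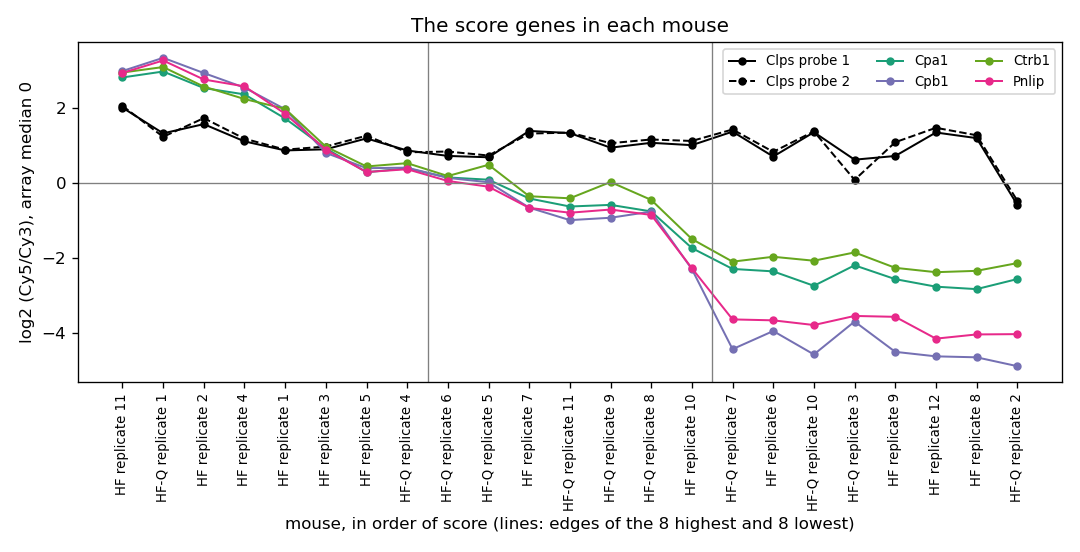
Log2 ratio (Cy5/Cy3, array median at 0) of the 6 spots of the score in each mouse, with mice in order of score and vertical lines at the edges of the 8 highest and 8 lowest. Cpa1, Cpb1, Pnlip and Ctrb1 fall together from left to right, while both Clps probes (black) lie above 0 in 22 of 23 mice.

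Which other genes differed between the 2 ends was asked with limma over 21468 genes, with diet as a covariate and Benjamini-Hochberg adjustment over all of them. At an adjusted p under 0.05, 25 genes were higher in the high mice (0.116% of genes tested) and 1 was lower (0.00466%). The count of lower genes rested on single mice: it was 42 without HF-Q mouse 10, 3 without HF-Q mouse 2 and 0 or 1 without any other mouse, and within slide 2 it was 70. The median difference of all genes was -0.01 on the log2 scale. Before adjustment, p was under 0.05 for 1441 genes that were higher (6.71%) and 1391 that were lower (6.48%). In 26 genes every high mouse lay above every low mouse (0.121%), and in 0 genes every high mouse lay below.

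Of 36 listed acinar products other than the score genes, 28 were measured, 26 of these were higher and 16 were called, with a median difference of 2.76. These counts describe the choice of mice and are not support for it. The trypsinogens were among the steepest. Try5 had normalized log2 ratios of -0.83 to 2.56 (median 1.25) in the high and -5.80 to -4.86 (median -5.35) in the low mice, a difference of 6.18 ± 0.46 (SE, adjusted p = 1.44e-06). Try4 differed by 5.85, Prss2 by 4.17, Prss1 by 3.84 and Gm5771, a trypsinogen copy, by 3.31. Trypsinogen genes are close copies of one another, so which copy a probe read is uncertain, and the same holds for the amylases and for Cela3a and Cela3b.

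Amylase, which cuts starch, followed the trypsinogens. Amy2a5, the pancreatic amylase, ran from -0.79 to 2.62 (median 1.05) in the high and from -5.75 to -4.68 (median -5.22) in the low mice and differed by 6.13 ± 0.47 (SE, adjusted p = 1.44e-06). Amy1, the salivary and liver form, was not on the acinar list and differed by 5.55 ± 0.44 (SE, adjusted p = 2.25e-06). The largest difference of any gene tested, 6.25 ± 0.46 (SE), was that of an unnamed transcript tag whose probe lies on chromosome 3 (chr3:112985269-112985328, build mm9). It lies near the probes of Amy2a5 (chr3:113084781-113084840) and Amy1 (chr3:113258901-113258960). Amy1 and the tag are both counted below among the genes outside the acinar lists. All 8 high mice lay above all 8 low mice for Amy2a5, Amy1 and the tag.

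The elastases, which cut elastin and other proteins, were Cela3a with a difference of 5.48 ± 0.42 (SE, adjusted p = 1.44e-06), Cela3b with 4.34, Cela2a with 3.80 and Cela1 with 3.18. Ctrl, a chymotrypsin-like protease, differed by 2.68. Among the lipid enzymes, Cel, the bile-salt-activated lipase, differed by 3.31 ± 0.36 (SE, adjusted p = 9.54e-05) and Pnliprp1, a lipase-related protein, by 2.68. Sycn, a zymogen granule protein, differed by 3.04.

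Reg2, a secreted lectin of the Reg family, was the least regular of the called acinar genes. Its log2 ratio was 3.14 in HF-Q mouse 1 and 2.01 in HF mouse 11, but -1.68 in HF mouse 3 and -1.01 in HF mouse 4, and it lay between -2.51 and -1.98 in the low mice. The groups did not overlap, and the difference was 2.85 ± 0.51 (SE, adjusted p = 0.037). Without HF-Q mouse 1 it was 2.34 with an adjusted p of 0.118, and the call was lost on leaving out any of 11 of the 16 mice.

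Acinar products that did not pass the test were mostly still higher. Gp2, a membrane protein of zymogen granules, differed by 1.13 (adjusted p = 0.135), the trypsin-like 2210010C04Rik by 1.10 (adjusted p = 0.101), Pla2g1b, the secreted phospholipase, by 1.02 (adjusted p = 0.0955) and Rnase1, pancreatic ribonuclease, by 0.85 (adjusted p = 0.0722). Pla2g1b and 2210010C04Rik were well above background on 8 high arrays, 1 of the 8 low arrays and 13 and 12 of all arrays. They passed the filter mainly through mice outside the low group, so they could hardly come out lower. Differences were -0.16 for Pnliprp2, which is also on the Paneth list, -0.13 for Tmed6 and 0.09 for Zg16, which is also a goblet gene. These 3 were picked out after their values were seen. Of the 8 listed products that were not measured, 6 had no probe matched by name, and Try10 and Cuzd1 were well above background on at most 7 arrays.

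**Figure D3:**
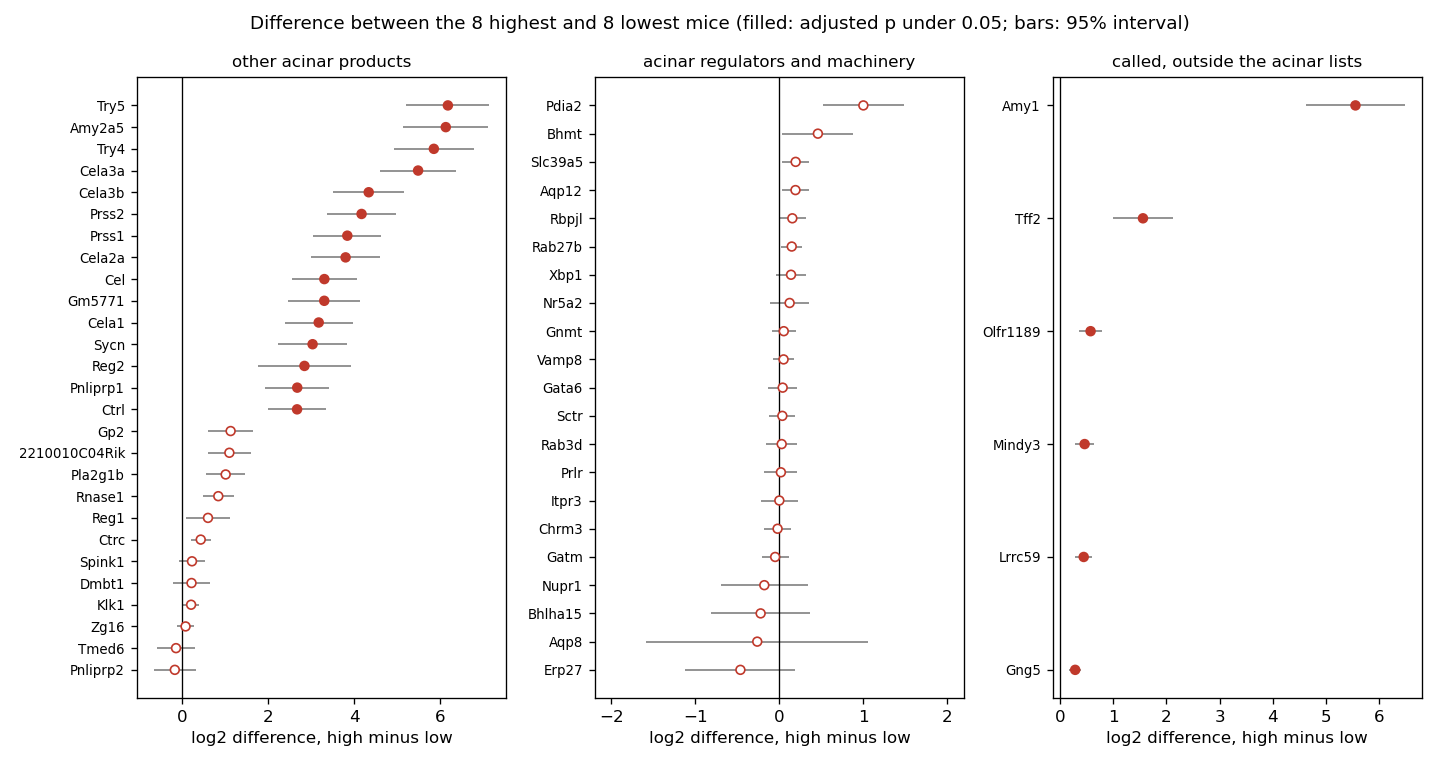
Log2 difference between the 8 highest and 8 lowest mice (points) with 95% confidence intervals (bars), for 27 of the 28 measured acinar products (left), 21 acinar regulators and machinery genes (middle) and the 6 called genes with an official symbol outside those lists (right); filled points have an adjusted p under 0.05. Products such as Try5 reach 6.18, while no gene in the middle panel is filled; the 3 panels have different horizontal scales.

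The measured genes that run the acinar cell differed less than its products. Whether the intestine itself made part of their RNA was not tested. Of 25 listed acinar regulators and machinery genes, 21 were measured, 14 were higher, 7 were lower and 0 were called by limma, with a median difference of 0.04. Before adjustment, p was under 0.05 for 5 of the 21, all of them higher, against 6.71% of all genes. One of the 5, Aqp12, was well above background on 6 high, 1 low and 9 of all 23 arrays. It passed the filter mainly through the high mice, so it could hardly come out lower. Pdia2, a pancreas-enriched disulfide isomerase, differed by 1.00 ± 0.23 (SE, adjusted p = 0.169). Over all 23 mice, however, its slope on the score was 0.31 ± 0.04 (SE, adjusted p = 0.000313), and it was the only gene of the list called in that fit. Beside Aqp12 and Pdia2, the 5 held Bhmt, Slc39a5 and Rab27b, with differences of 0.46, 0.19 and 0.15. A dimmer Rab27b probe gave -0.05. The factors Rbpjl, Nr5a2, Gata6, Xbp1 and Bhlha15 differed by 0.15, 0.12, 0.04, 0.14 and -0.22. Rbpjl was well above background on 7 high, 3 low and 12 of all 23 arrays. Ptf1a, the DNA-binding subunit of PTF1, was well above background on 2 arrays at most, Cckar, the cholecystokinin receptor, on 0, and neither was tested. In bulk RNA, fewer cells of a type and less RNA per cell cannot be told apart.

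Promoter letters were looked up for the called acinar genes. These genes were taken from a list of acinar products, so a motif of acinar promoters is no support for the ranking. Listed products that were not called were not looked up, so the shares do not bear on the calls. In the 250 bases before the start, an E-box CACCTG was found on either strand (as CACCTG or CAGGTG) in 11 of the 14 called acinar genes with a RefSeq promoter, against 19.4% of all 27025 genes in that table. A TC-box TTTCCC (or GGGAAA) was found in 7 of 14, against 24.4% of all genes, and both in 7 of 14 against 4.2%. Amy2a5, Pnliprp1 and Sycn had neither motif. Several of the 14 are copies of one another, so they are not independent. Of the 4 score genes with an entry, 1 had the E-box, 2 had the TC-box and 0 had both, and of the 5 other called genes with an entry, 0 had either. A match is a description of these letters and not a binding site. The promoters below show a close pairing (Cela1), 4 E-boxes (Cel and Cela3a) and a score gene with a TC-box alone (Cpa1); they are from RefSeq on build GRCm38.p6, 5′ to 3′ on the gene's strand and ending at the base before the start, with both motifs in capitals.
Cela1 promoter, chr15:100687921-100688170, minus strand: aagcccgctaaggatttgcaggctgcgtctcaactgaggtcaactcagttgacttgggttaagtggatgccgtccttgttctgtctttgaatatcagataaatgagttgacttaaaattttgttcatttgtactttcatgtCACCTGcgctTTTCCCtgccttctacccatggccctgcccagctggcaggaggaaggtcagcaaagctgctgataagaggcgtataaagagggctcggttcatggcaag
Cel promoter, chr2:28563404-28563653, minus strand: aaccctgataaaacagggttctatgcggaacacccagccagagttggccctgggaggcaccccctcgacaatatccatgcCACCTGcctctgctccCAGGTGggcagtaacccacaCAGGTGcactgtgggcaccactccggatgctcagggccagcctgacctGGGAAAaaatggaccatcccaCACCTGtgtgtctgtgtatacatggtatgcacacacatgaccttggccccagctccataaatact
Cela3a promoter, chr4:137409792-137410041, minus strand: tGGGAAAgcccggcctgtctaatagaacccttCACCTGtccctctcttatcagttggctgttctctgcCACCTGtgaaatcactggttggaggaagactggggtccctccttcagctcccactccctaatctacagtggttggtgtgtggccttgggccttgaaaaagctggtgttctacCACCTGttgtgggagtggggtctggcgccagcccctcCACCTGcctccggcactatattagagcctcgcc
Cpa1 promoter, chr6:30638968-30639217, plus strand: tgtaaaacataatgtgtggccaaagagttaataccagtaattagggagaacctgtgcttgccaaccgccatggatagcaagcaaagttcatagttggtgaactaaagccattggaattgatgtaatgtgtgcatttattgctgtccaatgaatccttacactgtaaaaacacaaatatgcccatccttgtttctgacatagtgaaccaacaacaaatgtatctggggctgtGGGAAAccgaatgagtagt

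Islet and duct genes were asked next, since both lie within the pancreas. Of 17 measured islet genes 8 were higher, 9 were lower and 0 were called, with a median difference of -0.01. Before adjustment p was under 0.05 for 3 of the 17, all higher, against 6.71% of all genes. Ins2, insulin, had log2 ratios of -0.16 to 0.19 (median 0.02) in the high and -0.03 to 0.17 (median 0.07) in the low mice, a difference of -0.04 ± 0.06 (SE, adjusted p = 0.781), and Gcg, glucagon, differed by -0.05 ± 0.11 (SE). The Ins2 and Gcg probes were well above background on 23 of 23 arrays and Ins1, the other insulin gene, on at most 19. The source of that RNA was not tested. Pdx1, a factor shared by islets and duodenal epithelium, had the smallest p on the list, with ratios of -0.22 to 0.70 (median 0.15) against -0.72 to 0.05 (median -0.19) and a difference of 0.50 ± 0.11 (SE, adjusted p = 0.101). Slc2a2, a glucose transporter of beta cells and enterocytes, differed by 0.37 (adjusted p = 0.295).

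Tff2, a trefoil peptide of mucous glands and ducts, was the 1 called gene of 10 measured on the duct list. Its ratios were -0.34 to 1.73 (median 0.69) in the high and -1.08 to -0.75 (median -0.91) in the low mice, and the groups did not overlap. It was highest in HF-Q mouse 1 at 1.73, HF mouse 2 at 1.25, HF mouse 11 at 1.2 and HF mouse 4 at 1.11, the 4 mice with the highest score. The difference was 1.56 ± 0.27 (SE, adjusted p = 0.0223). Tff2 was well above background on 8 high arrays, 0 of the 8 low arrays and 15 of all arrays. It passed the filter only through mice outside the low group, so it could hardly come out lower. The low mice also give only a bound. In the Cy5 channel alone this bound was 3.44-fold, a figure from mean signals with no confidence interval. The ratio gave a smaller estimate, 2.95-fold, so 3.44-fold is not a minimum for the difference in the ratio. In the Cy5 channel the mean log2 signal was 8.32 in the high and 6.47 in the low mice. A dye effect there was not tested, as no dye was swapped. The adjusted p was 0.0611 with slide as a block, and the call was also lost on leaving out HF mouse 2, 6, 9 or 12 or HF-Q mouse 1, with adjusted p-values of up to 0.0754. Other duct genes differed by 0.05 (Krt19), -0.08 (Krt7) and -0.29 (Sox9), with none called, and Muc6, the mucin found with Tff2 in pyloric and duodenal glands, was well above background on 0 arrays.

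Outside the acinar lists 10 genes were called, of which 6 have an official symbol. Beside Amy1 and Tff2 these were Lrrc59, an endoplasmic reticulum protein that holds ribosomes, Mindy3, a deubiquitinase, Gng5, a G protein subunit, and Olfr1189, an olfactory receptor gene. Lrrc59 ran from -0.22 to 0.41 (median 0.05) in the high and -0.65 to 0.00 (median -0.31) in the low mice, with a difference of 0.45 ± 0.08 (SE, adjusted p = 0.0198). Mindy3 differed by 0.47 ± 0.09 (adjusted p = 0.0468), Gng5 by 0.29 ± 0.05 (adjusted p = 0.0343) and Olfr1189 by 0.58 ± 0.10 (adjusted p = 0.0325). For these 4 the groups overlapped. On leaving out 1 mouse at a time, the call of Lrrc59 was lost without HF-Q mouse 1, HF mouse 9 or HF mouse 12, that of Olfr1189 without any of 9 mice, and those of Mindy3 and Gng5 without any of 12 mice. Of 27 other alternative fits, Lrrc59 and Olfr1189 were called in 13 each, Gng5 in 11 and Mindy3 in 9. Tff2 was called in 18 of the 26 that could test it.

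The other 4 of the 10 have no gene name. Beside the tag on chromosome 3, 2 probes with differences of 0.30 and 0.27 lie at chr13:65227495-65227554 and chr17:28863380-28863439 (build mm9). The 1 gene called lower is a long noncoding RNA probe at chr16:59597917-59597976, with a difference of -0.56 ± 0.10 (SE, adjusted p = 0.047) and the same sign on 3 of its 4 probes. The count of 10 moved with single mice. It was 54 without HF-Q mouse 10, 18 without HF mouse 8, 6 without HF mouse 4, 5 without HF mouse 1 or HF-Q mouse 7, 4 without HF mouse 3, 6 or 11, 3 without HF mouse 2, 9 or 12 and 2 without HF-Q mouse 1. In all, 26 genes were called with the 16 mice, 70 without HF-Q mouse 10 and 17 without HF-Q mouse 1.

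A straight line on the score over all 23 mice, fitted with limma and diet as a covariate, called 47 genes with a rising slope (0.219%) and 1 with a falling slope (0.00466%). In all 48 genes were called, 31 with slide as a block and 270 without the highest and the lowest mouse. These mice include the 16 above, so it is no independent test. It called 21 of the 28 measured acinar products. Try5 rose by 1.74 ± 0.06 (SE) on the log2 scale per unit of score, Tff2 by 0.47 ± 0.04 (adjusted p = 1.95e-07), Lrrc59 by 0.11 ± 0.02 (adjusted p = 0.0102) and Reg2 by 0.81 ± 0.11 (adjusted p = 0.000106). The falling gene was Tox, a nuclear factor of T cells, at -0.10 ± 0.02 (adjusted p = 0.0243), whose difference between the 2 ends was -0.39 ± 0.08 (adjusted p = 0.0788). Slopes did not differ between HF and HF-Q for any gene by limma (0%), with the smallest adjusted p at 0.293 and 1008 genes (4.7%) at an unadjusted p under 0.05.

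**Figure D4:**
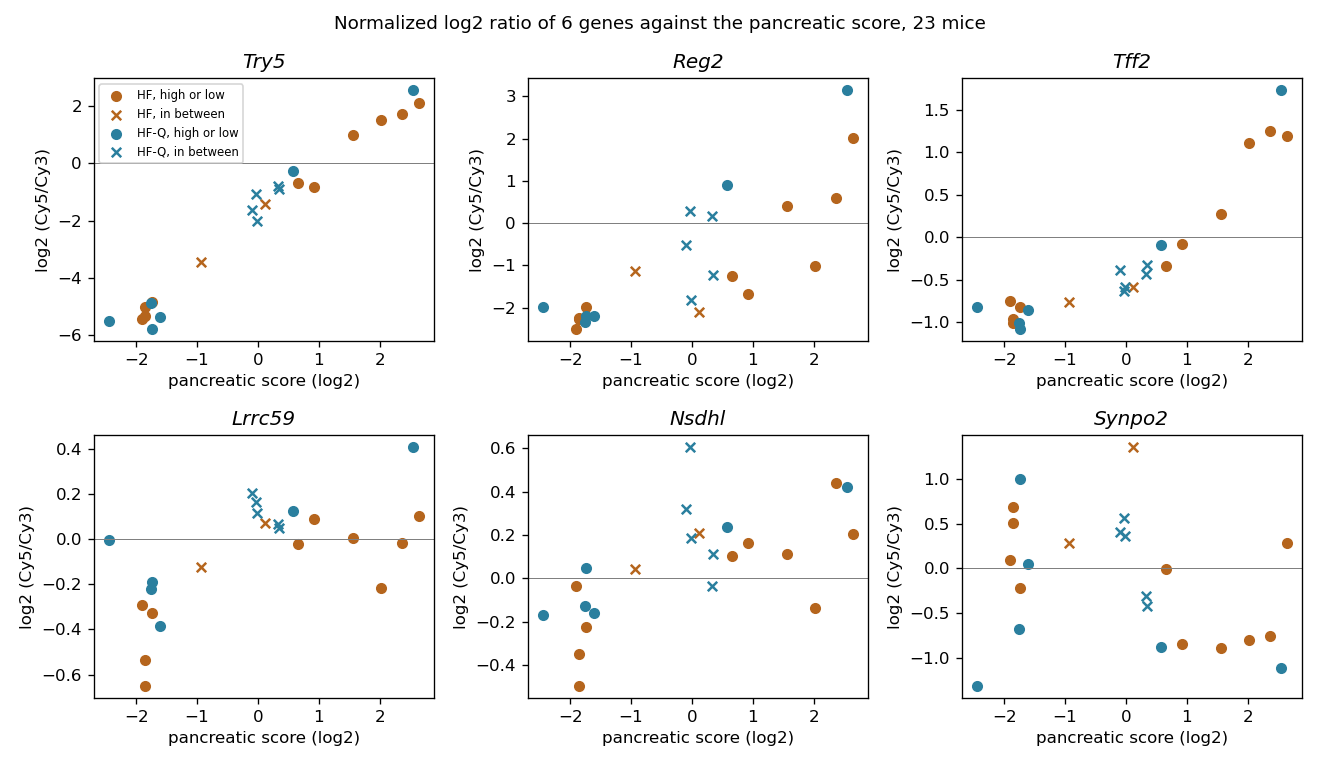
Normalized log2 ratio (Cy5/Cy3) of Try5, Reg2, Tff2, Lrrc59, Nsdhl and Synpo2 in each of 23 mice against the pancreatic score; circles are the high and low mice, crosses the 7 in between, and colours the diet. Try5 lies close to a line over the whole range, Reg2 scatters widely among the high mice, and Synpo2 spreads over both groups.

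Genes of the intestinal wall and epithelium were then described by list, with no test of a list. Of 25 genes of cholesterol synthesis, 23 were higher and 0 were called, with a median difference of 0.20 against -0.01 for all genes. Before adjustment, p was under 0.05 for 12 of the 25, all higher (6.71% of all genes were). Nsdhl, which removes a methyl group from sterols, ran from -0.14 to 0.44 (median 0.18) in the high and -0.50 to 0.05 (median -0.17) in the low mice, a difference of 0.43 ± 0.08 (SE, adjusted p = 0.0605). Lss, which closes the sterol rings, differed by 0.34 (adjusted p = 0.198), Hsd17b7 by 0.30 and Sc5d by 0.20. The list median was 0.12, 0.30 and 0.23 within the 3 slides, 0.18 within HF and 0.26 within HF-Q mice.

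Genes of the muscle layer were mostly lower in the high mice. Of 14 measured smooth muscle genes, 13 were lower, 1 was higher and 0 were called, with a median of -0.48 and 5 at an unadjusted p under 0.05. Synpo2, an actin-binding protein of muscle, ran from -1.12 to 0.28 (median -0.83) in the high and -1.32 to 1.00 (median 0.07) in the low mice and differed by -0.77 ± 0.28 (SE, adjusted p = 0.276). Acta2, smooth muscle actin, differed by -0.72, Myh11, its myosin, by -0.55 and Des, desmin, by -0.26. The mean of the list was -0.79 to 0.21 over the high and -0.92 to 0.68 over the low mice, so the groups overlapped. With that mean as a covariate, 8 genes were called lower in the high mice in place of 1.

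Paneth cell genes, the defensins and lectins of the crypt base, were lower in 16 of 16, with 0 called, 0 at an unadjusted p under 0.05 and a median of -0.44. Defa26 ran from -1.03 to 0.92 (median -0.79) in the high and -1.44 to 0.94 (median 0.64) in the low mice, a difference of -0.69 ± 0.38 (SE, adjusted p = 0.459). Defensins are close copies, and their probes may read one another. Within slide 3 the median of the list was 0.01, against -0.48 and -0.82 in the other slides. Of 25 cell cycle genes 23 were lower (median -0.17), with Mcm7, a replication helicase subunit, at -0.30 (adjusted p = 0.419), and of 13 stem cell genes 11 were lower (median -0.29), 0 being called on either list. The cell cycle median was 0.018 within HF-Q mice, with 13 of 25 higher, and 0.014 without the 5 highest-scoring mice, also with 13 higher. The stem cell median was 0.050 within slide 3, with 8 of 13 higher.

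Markers of position along the gut did not pass the test. Of 23 measured proximal genes 13 were higher (median 0.10), with Slc40a1, the iron exporter ferroportin, at 0.58 ± 0.14 (SE, adjusted p = 0.186) and Apoa4, an apolipoprotein of the jejunum, at 0.67 ± 0.23 (SE, adjusted p = 0.258). Gata4, a factor of the proximal gut, differed by -0.07 and Lct, lactase, by -0.06. Within HF-Q mice the proximal median was -0.050, with 11 of 23 higher. Of 21 distal genes 12 were higher (median 0.01), with a median of -0.096 within HF-Q mice, and the ileal bile acid genes Slc10a2, Fabp6 and Fgf15 differed by -0.22 ± 0.46, -0.25 ± 0.34 and -0.12 ± 0.48 (SE). The intervals of these 3 are wide, since mice of the same group ranged from -2.70 to 1.14 for Slc10a2.

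Tissue that lies beside the pancreas was looked at through fat and mesothelial genes. Of 15 measured adipocyte genes 11 were higher and 0 were called (median 0.15), with Adipoq, adiponectin, at 0.46 ± 0.17 (SE, adjusted p = 0.274) and Car3 at 0.70 ± 0.27 (SE, adjusted p = 0.304). Adipoq was well above background on 2 of the 8 low arrays. Within HF-Q mice 6 of the 15 were higher, with a median of -0.073. Of 5 mesothelial genes 3 were higher (median 0.01). B and plasma cell genes were lower in 15 of 16 (median -0.12), with Cd22, a B cell receptor, at -0.50 (adjusted p = 0.256), and macrophage and dendritic cell genes in 12 of 13 (median -0.09). The direction turned for both immune lists in some of the mice. Within HF-Q mice 11 of the 16 B and plasma cell genes were higher (median 0.084) and 10 of the 13 macrophage and dendritic cell genes (median 0.085), and within slide 3 these were 10 of 16 (median 0.049) and 10 of 13 (median 0.078). Whether any of these lists played a part in the genes called above was not tested.

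Further lists are given by their counts. Of 24 genes of the secretory pathway, 19 were higher (median 0.07), with Kdelr3, which returns proteins to the endoplasmic reticulum, at 0.51 ± 0.12 (SE, adjusted p = 0.186). Of 21 respiratory chain genes 19 were higher (median 0.06), with Atp5b, an ATP synthase subunit, at 0.25 (adjusted p = 0.233), and of 25 genes of fat absorption 19 were higher (median 0.08), with Scarb1, a lipid receptor, at 0.49 (adjusted p = 0.273). Enterocyte genes were higher in 13 of 16 (median 0.10), goblet genes in 8 of 11 (median 0.09) and enteroendocrine genes in 9 of 18 (median 0.00). Genes of the Reg family and other inducible antimicrobial products were higher in 12 of 15, with a median of 0.29, and their group means overlapped, from -1.38 to 0.52 in the high and -0.88 to 0.01 in the low mice. Within HF-Q mice the direction turned for fat absorption, with 9 of 25 higher (median -0.050), and 4 of 18 enteroendocrine genes were higher (median -0.11). Within slide 3 it turned for the secretory pathway, with 10 of 24 higher (median -0.015), and for the Reg and antimicrobial genes, with 4 of 15 higher (median -0.063). By limma 0 genes of these 7 lists were called, and before adjustment p was under 0.05 for 5, 6, 5, 2, 1, 0 and 0 of their members. All of these were higher, except 1 of the 2 enterocyte genes. Among all genes, 6.71% were higher and 6.48% lower at that threshold.

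**Figure D5:**
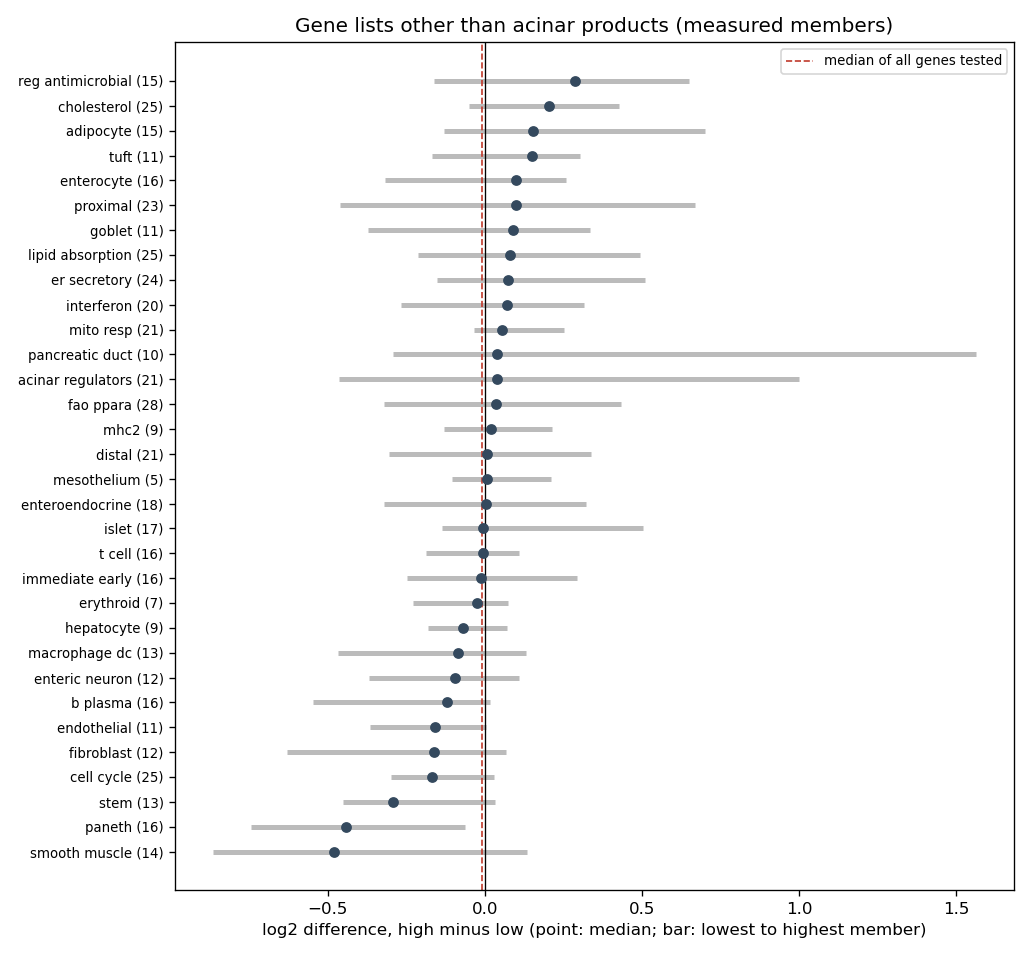
Log2 difference between the 8 highest and 8 lowest mice for each gene list other than acinar products: the point is the median of the measured members (number in brackets), the bar runs from the lowest to the highest member, and the dashed line is the median of all genes tested. Paneth (-0.44) and smooth muscle (-0.48) genes have the lowest medians, and every list but the duct list, which holds Tff2, has no called member.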

How the data were processed

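The submitters' processing notes name Agilent Feature Extraction 10.7.3.1 as the scanner software. Spot and background columns are linear intensity values, not normalized between arrays, per the file headers. The same files give the authors' own ratio as log10, corrected for background and dye within the array, per the file headers. A table deposited by the authors holds log2 values with a median of 9.11 in each column. Set against the scanner values they rise with Cy5 (slopes of 0.919 to 1.08 over arrays) and fall with Cy3 (-1.03 to -0.685); the sources used here do not give how they were centred.

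Background was corrected with normexp (offset 50) and arrays by loess, with control spots at weight 0, in limma 3.58.1 (R 4.3.3). Outlier spots were left out (260 to 355 per array), spots of a probe were averaged, and a probe was kept (29247 of 55681) if 50% or more of the arrays of 1 diet had its Cy5 well above background. A gene took its brightest probe. Names came from RefSeq of GRCm38.p6, by accession for 27325 probes, symbol for 3523 and synonym for 551, and 24282 probes kept the file's name. Positions of probes are on mm9, and exons were not analysed here. The score genes were left out of the adjustment. With 2 colours and 16 arrays, the number of arrays limits the precision.

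The mice, the lists and the rule for named genes were chosen with earlier results of these data known. That rule took the 5 score genes, acinar genes by count with the 6 largest differences, the 15 symbols with the smallest p in each direction outside those lists, up to 4 members with the smallest p of each other list, and 10 defining markers; the examples in the text are taken from it. The fit was tested on simulated data. Alternatives changed the signal, filter, covariates, group size, score and probe, or left out mice. One acinar product, which stays in the counts, and 1 probe sequence are not reported here.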

Additional observations from a re-analysis of the deposited data

Results flagged for a closer look

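In single mice, 14 values among 420 groups checked (210 genes in the high and the low group) lay far from the other mice of their group. Chance alone flags about 1 group in 20, so there were no more of them than chance would give. In the low group, HF-Q mouse 2 was far below the others for Clps (-1.37, the next mouse at -0.13), Defa26 (-1.44, the next at -0.05) and Emcn, an endothelial gene (-0.52, the next at 0.02). It was also the mouse with the lowest score, but Clps supplies 2 of the 6 spots of that score. With Clps left out, this mouse was not the lowest. HF-Q mouse 10 was lowest for Cela3b (-3.71, the next at -3.52) and for Kdr, an endothelial receptor (-0.23, the next at 0.03). HF-Q mouse 7 was highest for Cela1 (-1.76, the next at -2.29) and lowest for Oas1a, an interferon-induced gene (-0.70, the next at -0.35). HF-Q mouse 3 was lowest for Dmbt1, a mucosal scavenger protein (-0.56, the next at -0.09), and highest for Gnmt, a glycine methyltransferase (0.22, the next at 0.01).

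In the high group, HF mouse 2 stood above the others for 3 tuft cell genes: the channel Trpm5 (0.94, the next at 0.32), the lipoxygenase Alox5 (1.28, the next at 0.37) and the kinase Dclk1 (0.90, the next at 0.34). HF mouse 11, which had the highest score, was lowest for the beta cell factor Mafa (-0.29, the next at 0.00) and highest for Des (0.37, the next at -0.18). The causes of these values were not tested.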

How the results depend on the processing

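No alternative turned a called gene round: every called gene with a symbol kept its sign in each fit that could test it, and the genes below that changed sign were not called with all 16 mice. The calls themselves were less stable outside the acinar products. Against 26 calls in all (25 higher, 1 lower, 10 outside the acinar lists), the calls outside the acinar lists numbered 5 on the uncorrected ratio, 4 with median centring, 6 on the authors' log2 table, 5 from Cy5 alone, 5 with no filter on dim probes, 5 without the diet covariate, 5 with proximal and distal covariates, 4 with 11 against 11 mice, 5 without the 5 highest-scoring mice and 6 when only genes with a symbol were counted. Genes called lower numbered 2 on the authors' log10 ratio and with array weights, 8 with the smooth muscle covariate, and 0 from Cy5 alone, with no filter, with slide as a random block, with proximal and distal covariates and without the 5 highest-scoring mice. With slide as a block there were 17 calls, 0 lower and 2 outside the lists. Within slide 1 there were 14 calls, 14 higher, 0 lower and 2 outside; within slide 2 there were 88, 70 lower and 73 outside; within slide 3 and within HF-Q mice there were 0 in each count; within HF mice there were 17, 0 lower and 2 outside. Leaving out each mouse in turn gave 17 to 70 calls, 17 to 33 higher, 0 to 42 lower and 2 to 54 outside the lists. The slope on the score called 48 genes, 31 with slide as a block and 270 without the highest and the lowest mouse. Within slide 2 the difference of the score between diets was 0.043, against -0.52 over all mice. The alternatives that leave out Clps, leave out the 5 highest-scoring mice or count only genes with a symbol were chosen after seeing the data. The cause of these changes was not tested, but fits within a slide or a diet use fewer mice.

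The replicate numbers did not pair the mice: the deviations of same-numbered HF and HF-Q mice correlated at -0.35 to 0.39 over 11 pairs, with 5 pairs over 0.1. With the number as a random replicate block there were 28 calls in all, and with it as a fixed replicate block the slope called 19 genes.

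Of the 205 genes the naming rule took, 89 changed sign in at least 1 fit, none of them called with all 16 mice. Those named in the text are given here with their log2 differences under the setting. The signs of Rbpjl, Bhmt, Slc39a5, Rab27b and Ins1 under each setting are left out. With 11 against 11 mice, these were Gcg (0.026), Fgf15 (0.022) and Lct (0.073). With 6 against 6 mice, these were Dmbt1 (-0.013), Krt19 (-0.0085), Ins2 (0.032) and Fgf15 (0.027). On the authors' log10 ratio, this was Lct (0.016). On the authors' log2 table, these were Gcg (0.017) and Lct (0.032). With median centring, this was Lct (0.0098). Without the diet covariate, these were Fgf15 (0.037) and Lct (0.044). With proximal and distal covariates, these were Pnliprp2 (0.015), Zg16 (-0.0017), Tmed6 (0.11), Bhlha15 (0.13), Gata6 (-0.033), Gcg (0.035) and Slc10a2 (0.039). On the uncorrected ratio, these were Gcg (0.022), Gata4 (0.013) and Lct (0.034). With slide as a block, this was Lct (0.045). With the smooth muscle covariate, these were Pnliprp2 (0.19), Tmed6 (0.25), Bhlha15 (0.27), Gata6 (-0.016), Krt7 (0.0017), Defa26 (0.077), Emcn (0.011), Gcg (0.080) and Des (0.18). Within HF mice, these were Dmbt1 (-0.080), Gcg (0.019), Fgf15 (0.64) and Lct (0.19). Within HF-Q mice, these were Zg16 (-0.015), Bhlha15 (0.030), Gnmt (-0.0018), Alox5 (-0.0071), Dclk1 (-0.071), Kdr (0.030) and Slc10a2 (0.0037). Within slide 1, these were Ins2 (0.061), Gcg (0.087) and Lct (0.026). Within slide 2, these were Nr5a2 (-0.16), Fabp6 (0.034), Gata4 (0.088) and Lct (0.15). Within slide 3, these were Pnliprp2 (0.064), Zg16 (-0.020), Tmed6 (0.071), Bhlha15 (0.034), Xbp1 (-0.15), Mafa (0.012), Sox9 (0.060), Sis (-0.0054), Emcn (0.16), Krt19 (-0.075), Slc10a2 (0.34), Fabp6 (0.035), Fgf15 (0.98), Lct (0.084) and Des (0.039). Without the 5 highest-scoring mice, these were Zg16 (-0.049), Tmed6 (0.055), Bhlha15 (0.11) and Lct (0.012). On leaving out single mice the sign also changed for Fgf15 (-0.36 to 0.17), Gata6 (-0.0041 to 0.072), Gcg (-0.096 to 0.0028), Ins2 (-0.065 to 0.0063), Lct (-0.16 to 0.052) and Slc10a2 (-0.44 to 0.037), given here as their ranges. The comparison of 8 with 8 mice recovered 76% of simulated differences of 0.5 log2 and 98% of those of 1, so smaller differences can go unseen. Larger ones can go unseen too in genes that spread widely within a group. Gp2 (difference 1.13, SD 0.72 in the high mice) and Pdia2 (1.00, SD 0.52) were not called. Probes near background give only bounds.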
